A study of Mus musculus with 6 samples.

Results

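Interleukins and their receptors outside the IL-1, IL-18 and IL-6 core were examined in the lungs of mice with impaired glucocorticoid receptor (GR) dimerization after hemorrhagic shock (HS). The members were all protein-coding genes whose symbol began with Il and a digit, without Il1a, Il1b, Il1rn, Il1r1, Il1r2, Il18, Il6, Il11, Il6ra and Il6st. The rule used no measured value and gave 74 of the 54532 genes counted. They were 37 receptor genes, 33 ligand genes, 3 genes for decoy receptors or binding proteins and Il4i1, which encodes an enzyme. Both genotypes had the mixed strain background 129/SvEv x C57BL/6 and were 10 to 16 weeks old. The 3 GR+/+ mice carried the unaltered receptor and the 3 GRdim/dim mice carried, in all cells, a GR point mutation that impairs dimerization. All 6 mice underwent HS for 1 h, during which mean arterial pressure was held at 35 mmHg, followed by 4 h of resuscitation, and poly(A) RNA of lung tissue was sequenced from each. The GR+/+ group held 2 females and 1 male, and the GRdim/dim group 1 female and 2 males. No unshocked lung was among the libraries, so each difference is one between genotypes after HS.

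Interleukins are secreted proteins through which leukocytes and tissue cells signal to each other. Most receptors are built from a chain that binds the cytokine and a chain that several cytokines share, such as the common gamma chain (Il2rg) for IL-2, IL-4, IL-7, IL-9, IL-15 and IL-21, and such receptors signal through Janus kinases and STAT proteins. Receptors of the IL-1 and IL-17 families use adaptor proteins and activate NF-kappaB instead. In the lung, lymphocytes, myeloid cells, epithelium and stroma carry different receptors, while epithelial cells store IL-33 and release it upon injury.

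Between 16361747 and 32082940 reads were counted per GR+/+ lung and between 15687734 and 24444604 per GRdim/dim lung. The markers of alveolar type 2 cells, an epithelial cell type of the lung, summed to 17337 to 25380 CPM (the count of a gene scaled to the library's total) in GR+/+ and 17331 to 25766 CPM in GRdim/dim lungs. Nr3c1, the GR gene, stood at 138 to 162 CPM and 120 to 159 CPM, but a level does not show a point mutation. All CPM were scaled by the trimmed mean of M-values, and log2 fold changes are GRdim/dim over GR+/+ with their standard error (SE). In bulk tissue, fewer cells of a type and less RNA per cell cannot be told apart.

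Of the 74 genes, 40 were measured well enough to be tested, namely 28 of 37 receptors, 10 of 33 ligands and 2 of 3 decoy or binding proteins. The largest differences, higher in GRdim/dim lungs, were measured for chains of the IL-21, IL-2, IL-10 and IL-27 receptors. None of the 40 reached an adjusted p under 0.05 with a log2 fold change beyond 0.5 by the quasi-likelihood test of edgeR, Benjamini-Hochberg adjusted over 16568 genes, where 0.169% of all genes did. With DESeq2, 3 receptor genes passed the same thresholds, Il21r, Il2rb and Il10ra, against 0.817% of genes called higher. At an unadjusted edgeR p under 0.05, 8 of the 40 were higher in GRdim/dim lungs (20% against 4.91% of all genes) and 0 were lower (4.68% of all genes). All 8 were receptor genes, which is 28.6% of the receptors tested. Without GRdim/dim replicate 1, the number was 5. In 8 of the 40 all GRdim/dim lungs lay above all GR+/+ lungs, against 7.77% of all genes.

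**Figure D1:**
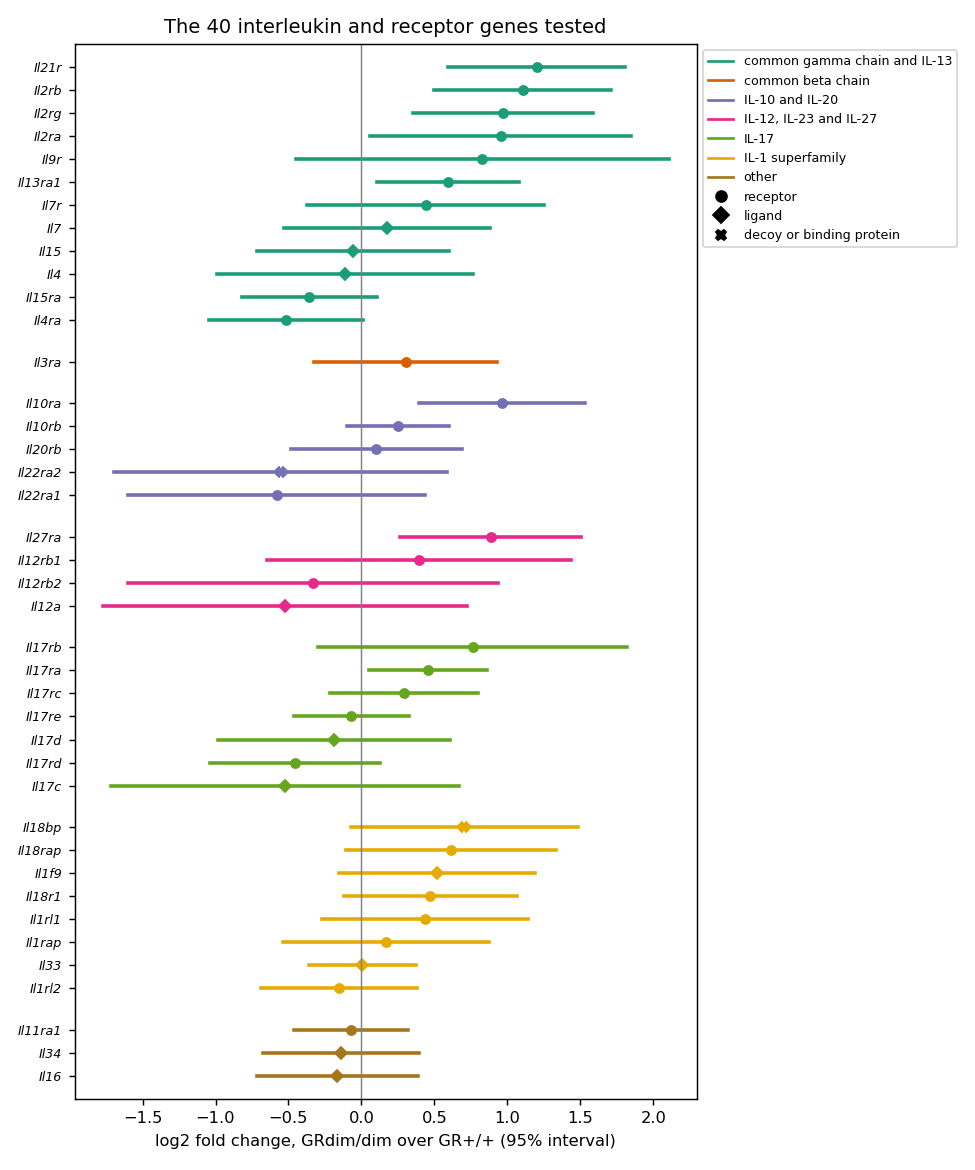
Log2 fold change, GRdim/dim over GR+/+, of the 40 tested genes on the horizontal axis, with 95% intervals as lines, colored by family, with circles for receptors, diamonds for ligands and crosses for decoy or binding proteins. The intervals of 8 receptor genes, from Il21r at 1.20 to Il17ra at 0.45, lie wholly above 0, and none lies wholly below it.

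The log2 fold change was above 0 in 24 and below 0 in 16 of the 40, with a median of 0.21 against 0.01 over all genes tested. Among receptors, 20 were above and 8 below 0 (median 0.42). Among ligands, 3 were above and 7 below 0 (median -0.13). The summed level of the 37 receptor genes was 951 ± 91.7 CPM in GR+/+ and 1034 ± 88.9 CPM in GRdim/dim lungs (SD, n = 3 each, exact permutation test, two-sided p = 0.5, where 0.1 is the smallest p that 3 against 3 allows). Il4ra alone, which was lower in GRdim/dim lungs, made up 290 CPM of the GR+/+ mean and 203 CPM of the GRdim/dim mean. Without Il4ra, the receptors summed to 661 ± 37.9 and 832 ± 82.6 CPM, without overlap (SD, n = 3 each, exact permutation test, two-sided p = 0.1). Il4ra was left out for its opposite direction in these same libraries, while the other receptors below 0 were kept. The separation and its p are therefore no test of the receptors as a set. Ligands summed to 161 ± 12.2 and 156 ± 22.0 CPM (SD, n = 3 each, exact permutation test, two-sided p = 0.8).

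The common gamma chain family, with IL-13, held 5 of the 8 receptor genes at an unadjusted p under 0.05. Of its 17 genes, 12 were tested, 8 of these with a log2 fold change above 0 and a median of 0.52. Il21r encodes the chain that binds IL-21, a T cell cytokine that acts on B, T and NK cells. Its level was 5.80, 7.55 and 4.16 CPM in the GR+/+ lungs and 12.99, 13.1 and 14.0 CPM in the GRdim/dim lungs. The groups were well apart and the 3 GRdim/dim lungs nearly level. The mean was 5.84 ± 1.70 against 13.4 ± 0.564 CPM (SD, n = 3 each), 2.30-fold, with a log2 fold change of 1.20 (SE 0.27, 95% interval 0.60 to 1.81, edgeR adjusted p = 0.171, DESeq2 adjusted p = 0.00623). Over the alternative fits, its adjusted p ran from 0.00623 to 0.377.

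The promoter of Il21r and that of Il4ra, its neighbor on the same strand of chromosome 7, are shown because the log2 fold changes of these adjacent genes had opposite signs, 1.20 and -0.51. That of Il4ra did not reach an unadjusted p under 0.05 in the main fit. The sequences are RefSeq reference sequence of GRCm38.p6 from the plus strand, 5' to 3', the 250 bases before the start site of Il21r (chr7:125603179-125603428) and the 99 bases before the first annotated exon of Il4ra (chr7:125552021-125552119).
Il21r: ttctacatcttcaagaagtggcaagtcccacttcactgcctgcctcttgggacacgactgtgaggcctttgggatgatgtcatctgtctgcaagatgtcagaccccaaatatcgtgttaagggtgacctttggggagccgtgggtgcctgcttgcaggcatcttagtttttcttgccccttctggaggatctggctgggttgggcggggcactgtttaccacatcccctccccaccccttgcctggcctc
Il4ra: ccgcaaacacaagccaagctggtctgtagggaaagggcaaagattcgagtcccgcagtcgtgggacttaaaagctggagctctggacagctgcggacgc
Neither stretch holds AGAACA, a single arm of the palindromic GR response element, on either strand. The full element, AGAACA and TGTTCT with 3 bases between them, was found in 0.00913% of the 32851 RefSeq promoters searched over 250 upstream bases and in 0 of the 66 promoters of the members.

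IL-2 receptor chains showed the same direction. Il2rb encodes the beta chain, which signals for IL-2 and IL-15 and is abundant on NK cells and activated T cells. It was measured at 9.20, 11.6 and 6.96 CPM in GR+/+ and at 17.6, 25.6 and 16.1 CPM in GRdim/dim lungs. Every GRdim/dim lung lay above every GR+/+ lung, and GRdim/dim replicate 2 was the highest. This made a log2 fold change of 1.10 (SE 0.27, 95% interval 0.50 to 1.71, 2.15-fold, edgeR adjusted p = 0.216, DESeq2 adjusted p = 0.0147, 0.00677 to 0.437 over the alternatives).

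Il2rg, the X-linked common gamma chain itself, stood at 13.7, 21.6 and 10.5 CPM in GR+/+ and at 36.6, 27.5 and 25.6 CPM in GRdim/dim lungs. The groups did not overlap, and GRdim/dim replicate 1 was the highest. It had a log2 fold change of 0.97 (SE 0.28, 95% interval 0.35 to 1.59, edgeR adjusted p = 0.297, DESeq2 adjusted p = 0.0525, 0.00845 to 0.569 over the alternatives) and again 0.97 with sex-linked expression as a covariate. Of its exon bases, 30.5% are shared with the same-strand gene model Gm20489, which had 0 counts in all libraries.

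Il2ra, the alpha chain that gives the IL-2 receptor high affinity and marks regulatory T cells, was much scarcer. Its level was 1.08, 2.28 and 1.91 CPM in GR+/+ and 4.26, 3.70 and 2.26 CPM in GRdim/dim lungs. The lowest GRdim/dim lung just met the highest GR+/+ lung. Its log2 fold change was 0.96 (SE 0.40, 95% interval 0.06 to 1.85, edgeR adjusted p = 0.487).

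**Figure D2:**
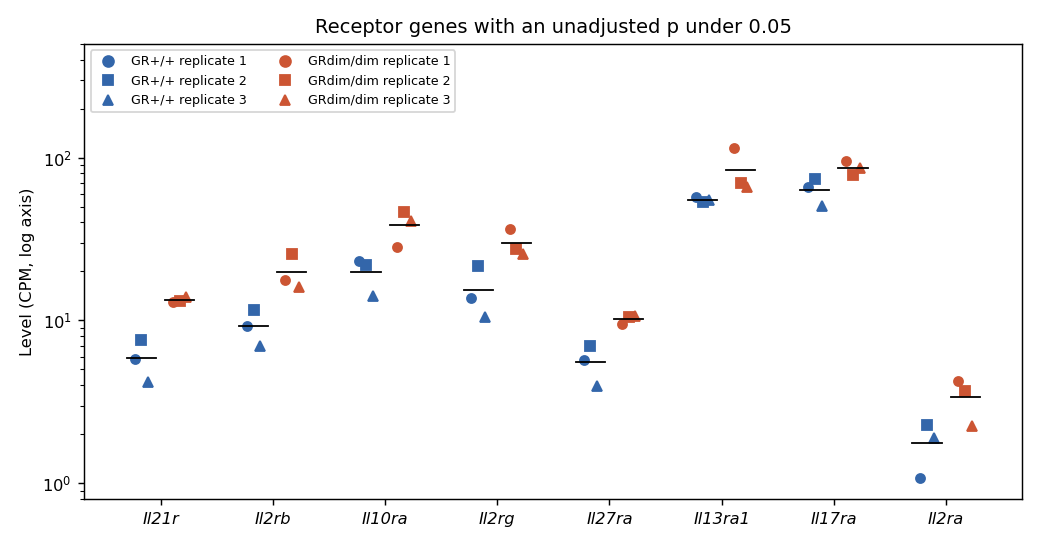
Level in CPM on a log axis of the 8 receptor genes with an unadjusted p under 0.05, ordered by p, with one symbol per library (GR+/+ blue, GRdim/dim orange) and a bar at each group mean. For all but Il2ra every orange symbol lies above every blue one, and GR+/+ replicate 3 is the lowest library for Il21r, Il2rb, Il10ra, Il2rg, Il27ra and Il17ra.

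The stretches upstream of Il2ra and Il2rg are shown because, of the 8 genes above, theirs were the promoters found to hold AGAACA. The letters of that arm are in capitals, and the 250 bases before the RefSeq start site are read 5' to 3' along the gene, for Il2ra from the plus strand (chr2:11642542-11642791) and for Il2rg from the minus strand (chrX:101268256-101268505) of GRCm38.p6.
Il2ra: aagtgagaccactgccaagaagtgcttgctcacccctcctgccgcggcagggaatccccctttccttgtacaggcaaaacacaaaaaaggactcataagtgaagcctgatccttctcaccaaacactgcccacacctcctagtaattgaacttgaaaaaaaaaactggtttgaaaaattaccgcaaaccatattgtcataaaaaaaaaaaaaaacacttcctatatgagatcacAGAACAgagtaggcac
Il2rg: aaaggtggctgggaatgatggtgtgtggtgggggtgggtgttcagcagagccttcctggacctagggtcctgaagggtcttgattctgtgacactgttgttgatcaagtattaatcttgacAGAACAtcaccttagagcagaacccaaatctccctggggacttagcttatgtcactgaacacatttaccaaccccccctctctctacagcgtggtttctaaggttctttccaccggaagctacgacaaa
Either strand of 16.1% of all promoters held this arm, and 6 of the 66 member promoters did, those of Il12a, Il17c, Il18bp, Il2ra, Il2rg and Il31ra. A STAT site TTCNNNGAA was found in 7.02% of all promoters and in 7 of the 66, those of Il12rb2, Il18r1, Il19, Il1f5, Il1f9, Il31ra and Il7r. Its stricter form TTCCNGGAA, which it includes, was in 0.913% of all promoters and in that of Il31ra. The NF-kappaB motif, GGGA and TTTCC with 1 base between them, was in 0.356% of all promoters and in that of Il16, and the interferon element, TTTC repeated after 2 bases, was in 2.98% and in those of Il19 and Il4. Promoter sequence was at hand for 55 of the 72 member symbols, not for Il2rb, Il10ra, Il27ra and Il17ra.

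Most markers of lymphocytes were also higher in GRdim/dim lungs. All 10 NK cell markers had a log2 fold change above 0 (median 1.14), 6 of them with an unadjusted edgeR p under 0.05, and their summed level was 11.5 to 28.6 CPM in GR+/+ and 33.8 to 54.3 CPM in GRdim/dim lungs. Of the 11 T cell markers, 10 were above 0 (median 0.91) and 6 had an unadjusted p under 0.05, with sums of 33.9 to 61.1 CPM and 65.0 to 92.8 CPM. All 10 B cell markers were above 0 (median 1.23), 8 of them with an unadjusted p under 0.05, and summed to 95.8 to 198 CPM and 234 to 763 CPM. Each of these sums was separate between genotypes (exact permutation test, two-sided p = 0.1 for each, the smallest possible). The lists were chosen with earlier results of these data known, so these are not independent tests. Ighm and Igkc made up much of the B cell sum, at means of 244 and 193 CPM in GRdim/dim lungs. All these sums were highest in GRdim/dim replicate 2, as was Il2rb, whereas Il2rg and Il2ra were highest in replicate 1 and Il21r in replicate 3. Dendritic cell markers had 4 of 8 at an unadjusted p under 0.05 and sums of 374 to 447 CPM and 419 to 668 CPM, which overlapped. No marker of any list was at 0 in all libraries, and the part of these cells in the receptor levels was not tested.

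**Figure D3:**
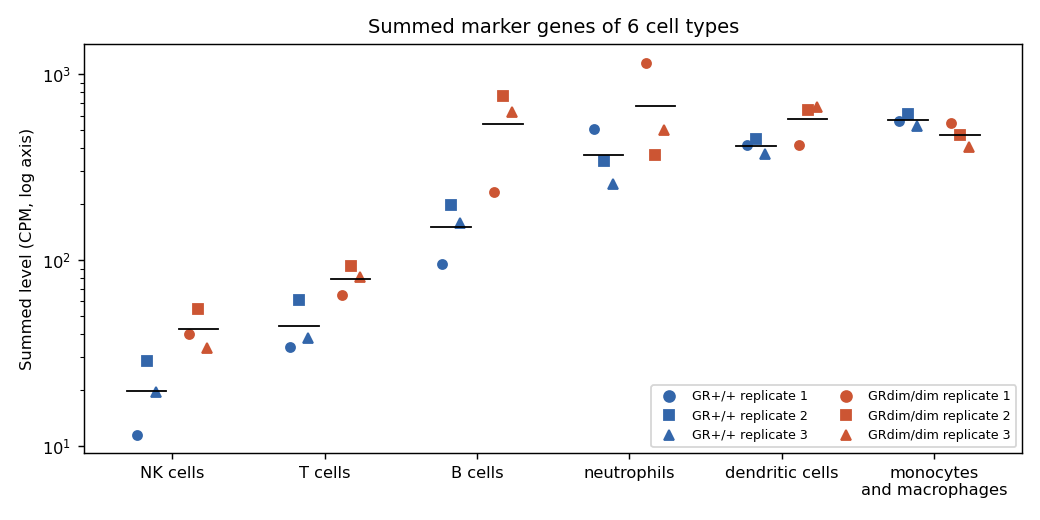
Summed level in CPM on a log axis of the markers of 6 cell types, with one symbol per library and a bar at each group mean. The NK cell, T cell and B cell sums of the GRdim/dim lungs lie above all GR+/+ sums, while the neutrophil sum of GRdim/dim replicate 1 stands alone at 1157 CPM.

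The chains for IL-4, IL-13, IL-15 and IL-7 did not share one direction. Il4ra, the chain that IL-4 and IL-13 receptors share, had the highest level per length of all members, 143 ± 53.7 TPM (counts per gene length, scaled to the library) in GR+/+ and 95.6 ± 18.6 TPM in GRdim/dim lungs (SD, n = 3 each). In CPM, it stood at 372, 278 and 220 in the GR+/+ lungs and at 203, 158 and 248 in the GRdim/dim lungs. The groups overlapped, since GRdim/dim replicate 3 lay above GR+/+ replicate 3. The log2 fold change was -0.51 (SE 0.24, 95% interval -1.04 to 0.01, edgeR adjusted p = 0.537). With sex-linked expression as a covariate it was -0.71 (edgeR unadjusted p = 0.00657, adjusted p = 0.371). It was -0.29 without GR+/+ replicate 1, and ran from -0.68 to -0.29 over the 6 fits that lacked a library. A gene model on the other strand, Gm44876, overlaps 9.51% of its exon bases and had 8 counts in GR+/+ replicate 3 and 0 elsewhere.

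Il13ra1, the X-linked chain that binds IL-13 and pairs with Il4ra, differed the other way. It was measured at 57.7, 53.2 and 55.1 CPM in GR+/+ and at 115, 70.3 and 65.7 CPM in GRdim/dim lungs. The GR+/+ lungs were close together, all 3 GRdim/dim lungs lay above them, and replicate 1 stood far above the rest. The log2 fold change of 0.60 (SE 0.22, 95% interval 0.11 to 1.08, edgeR adjusted p = 0.431) was 0.30 without GRdim/dim replicate 1. With sex-linked expression as a covariate it was 0.50 (edgeR unadjusted p = 0.0684).

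Il15ra, which presents IL-15 to neighboring cells, was the one member whose GRdim/dim lungs all lay below the GR+/+ lungs, against 7.05% of all genes. It stood at 17.4, 19.8 and 15.9 CPM in GR+/+ and at 14.7, 12.3 and 14.5 CPM in GRdim/dim lungs. The gap between the groups was small next to their spread, and the log2 fold change was -0.36 (SE 0.21, 95% interval -0.82 to 0.10, edgeR adjusted p = 0.647).

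Il7r, the IL-7 receptor of naive T cells and innate lymphoid cells, had 16.7, 25.5 and 13.8 CPM in GR+/+ and 24.5, 38.1 and 13.045 CPM in GRdim/dim lungs. GRdim/dim replicate 3 was the lowest library of all, so the groups overlapped. Its log2 fold change of 0.44 (SE 0.36, 95% interval -0.37 to 1.25, edgeR adjusted p = 0.775) ran from 0.01 to 0.75 over the 6 fits that lacked a library.

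Of the ligands of this family, Il7, Il15 and Il4 were tested. Il7, a survival factor for lymphocytes, had 3.53, 2.52 and 3.72 CPM in GR+/+ and 3.29, 4.40 and 3.36 CPM in GRdim/dim lungs. Il15, which sustains NK cells, had 5.74, 7.37 and 4.29 CPM and 5.01, 6.36 and 5.23 CPM. Il4, the type 2 T cell cytokine, had 3.71, 2.58 and 2.54 CPM and 3.67, 1.54 and 2.97 CPM. In all 3 the groups overlapped, with log2 fold changes of 0.18 (SE 0.32), -0.06 (SE 0.30) and -0.11 (SE 0.40). Il2 had 0 counts but for 3 in GRdim/dim replicate 2, Il13 had 0, 1 and 6 counts in the GR+/+ lungs against 3, 3 and 0 in the GRdim/dim lungs, and neither was tested. The IL-21 ligand had 1 count among the GR+/+ and 1 among the GRdim/dim lungs.

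**Figure D4:**
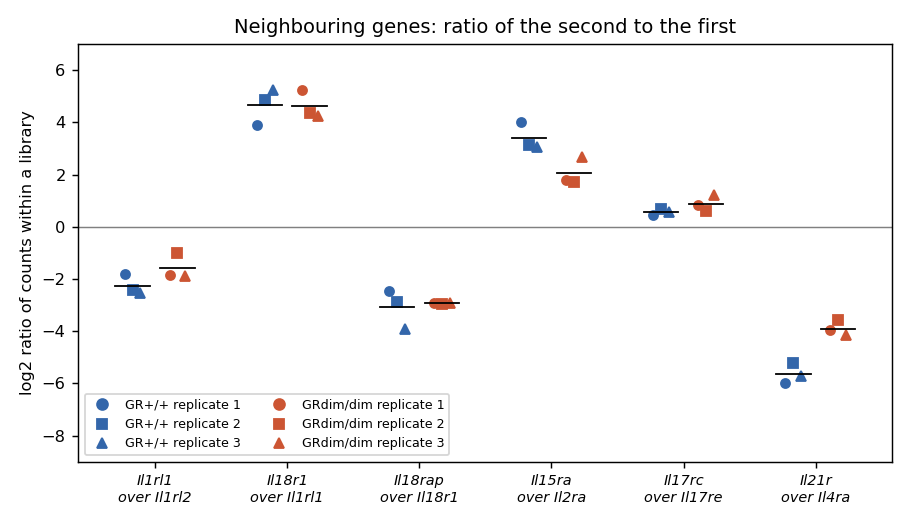
Log2 ratio of the counts of adjacent member genes within a library, for the 6 pairs of tested members on one strand with no gene between them, with one symbol per library and a bar at each group mean. The ratio of Il21r to Il4ra lies between -6.00 and -5.20 in GR+/+ and between -4.15 and -3.59 in GRdim/dim lungs, and that of Il15ra to Il2ra is also separate between the genotypes.

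Since both genes of an adjacent pair are counted in the same library, their ratio does not depend on library scaling. Il4ra (chr7:125552120-125579474) and Il21r (chr7:125603429-125633570) lie 24.0 kb apart. The log2 ratio of Il21r to Il4ra was -6.00, -5.20 and -5.72 in GR+/+ and -3.97, -3.59 and -4.15 in GRdim/dim lungs. The groups were clearly separate, with a difference of 1.74 between their means. Il2ra (chr2:11642807-11693193) and Il15ra (chr2:11705290-11734317) lie 12.1 kb apart, with a log2 ratio of Il15ra to Il2ra of 4.02, 3.12 and 3.06 in GR+/+ and of 1.78, 1.73 and 2.68 in GRdim/dim lungs. This difference of -1.33 was again without overlap. For both pairs the exact permutation test gave a two-sided p = 0.1, the smallest possible, and no p could pass an adjustment over the 6 pairs. The other pairs, 3 along the cluster Il1rl2, Il1rl1, Il18r1 and Il18rap and the pair Il17re and Il17rc, overlapped between the genotypes and differed by at most 0.67.

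In the IL-10 and IL-20 family, 5 of 11 genes were tested and both IL-10 receptor chains lay apart between genotypes. Il10ra binds IL-10, the main anti-inflammatory interleukin, and is carried by leukocytes. It stood at 23.3, 22.1 and 14.2 CPM in GR+/+ and at 28.1, 46.6 and 40.9 CPM in GRdim/dim lungs. All GRdim/dim lungs lay above the GR+/+ lungs, replicate 1 only slightly. The log2 fold change was 0.96 (SE 0.26, 95% interval 0.39 to 1.53, edgeR adjusted p = 0.251, DESeq2 adjusted p = 0.0331, 0.00473 to 0.467 over the alternatives).

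Il10rb, the chain that IL-10, IL-22 and interferon lambda receptors share, is found in most tissue cells. It had 50.3, 58.5 and 60.6 CPM in GR+/+ and 68.2, 65.8 and 67.6 CPM in GRdim/dim lungs. The groups did not overlap, but the distance was small, with a log2 fold change of 0.25 (SE 0.16, 95% interval -0.10 to 0.60, edgeR adjusted p = 0.681). A same-strand gene model, Gm21970, covers 14.9% of its exon bases and had 0 counts. Il10 itself was barely seen, with 1, 2 and 4 counts in GR+/+ and 0, 11 and 4 counts in GRdim/dim lungs, and Il22 had 0 counts in all 6. The Il22 count is uncertain because 53.6% of its 31-base windows recur in another gene, Iltifb. The 3 other tested genes, Il20rb, Il22ra1 and Il22ra2, had log2 fold changes of 0.10, -0.58 and -0.55 with an SE of 0.26 to 0.51.

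Of the 8 genes of IL-12, IL-23 and IL-27, 4 were tested. Il27ra encodes the receptor for IL-27, which acts on T and NK cells through the kinases of the STAT pathway. Its level was 5.74, 6.95 and 3.94 CPM in GR+/+ and 9.49, 10.4 and 10.7 CPM in GRdim/dim lungs. The groups were separate and the GRdim/dim lungs close together, with a log2 fold change of 0.89 (SE 0.28, 95% interval 0.27 to 1.50, edgeR adjusted p = 0.342). Il12rb1, shared by the IL-12 and IL-23 receptors, was low and overlapped, at 0.837, 0.899 and 1.40 CPM in GR+/+ and 1.89, 0.789 and 1.55 CPM in GRdim/dim lungs (log2 fold change 0.40, SE 0.47). Of the ligand genes, Il12a was tested and overlapped between genotypes, with a log2 fold change of -0.52 (SE 0.56). Il12b, the subunit common to IL-12 and IL-23, had 2, 6 and 3 counts in the GR+/+ lungs against 9, 11 and 0 in the GRdim/dim lungs. Il23a, the IL-23 subunit, had 27, 8 and 10 counts and 4, 0 and 9 counts.

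In the IL-17 family, 7 of 11 genes were tested and their median log2 fold change was -0.07. Il17ra, the chain common to the IL-17 receptors and present on most cells, stood at 66.0, 73.9 and 50.8 CPM in GR+/+ and at 95.9, 78.4 and 86.9 CPM in GRdim/dim lungs. The groups did not overlap, with GR+/+ replicate 2 close to GRdim/dim replicate 2. Its log2 fold change was 0.45 (SE 0.18, 95% interval 0.05 to 0.86, edgeR adjusted p = 0.465), and 0.39 with sex-linked expression as a covariate (edgeR unadjusted p = 0.0899). Il17rc, its partner for IL-17A and IL-17F, overlapped, at 40.3, 47.4 and 38.1 CPM in GR+/+ and 45.8, 38.8 and 69.5 CPM in GRdim/dim lungs (log2 fold change 0.29, SE 0.23, and 0.014 without GRdim/dim replicate 3). Il17d, a ligand of tissue cells, also overlapped, with 16.6, 23.9 and 17.9 CPM against 10.5, 12.3 and 28.7 CPM (log2 fold change -0.19, SE 0.36). In both genes GRdim/dim replicate 3 was the highest library. Il17a, the cytokine of Th17 and gamma delta T cells, had 0 counts in all 6 lungs, which allows up to 0.0953 to 0.194 CPM for a count of 3, counting error only.

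The IL-1 superfamily outside its core held 14 genes, of which 8 were tested. Their log2 fold change was above 0 in 7 (median 0.45), yet none had an unadjusted p under 0.05. Il33, the epithelial alarmin, had one of the highest levels per length and differed least, with 60.4, 51.7 and 62.2 CPM in GR+/+ and 61.8, 52.2 and 61.1 CPM in GRdim/dim lungs. The groups overlapped almost fully, and the log2 fold change was 0.01 (SE 0.16, 95% interval -0.36 to 0.37, edgeR adjusted p = 0.996). Its receptor gene Il1rl1, of group 2 innate lymphoid cells and mast cells, had a log2 fold change of 0.44 (SE 0.32). Of 6 tested markers of those lymphoid cells, 1 was higher and 2 lower at an unadjusted edgeR p under 0.05, with sums of 155 to 208 CPM in GR+/+ and 122 to 160 CPM in GRdim/dim lungs, which overlapped.

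For several genes of this family, most of the difference lay in GRdim/dim replicate 1. Il1rl1 was an exception, with a log2 fold change of 0.44 and of 0.45 without that library. Il18r1, the IL-18 receptor chain known from T and NK cells, stood at 86.2, 90.8 and 126 CPM in GR+/+ and at 203, 118 and 99.2 CPM in GRdim/dim lungs. The last of these lay within the GR+/+ range. Its log2 fold change was 0.47 (SE 0.27, edgeR adjusted p = 0.632) and 0.11 without GRdim/dim replicate 1. Il1rap, the accessory chain shared by the IL-1, IL-33 and IL-36 receptors, had 30.3, 21.2 and 20.7 CPM in GR+/+ and 41.5, 23.2 and 16.5 CPM in GRdim/dim lungs. Its log2 fold change turned from 0.17 (SE 0.32) to -0.27 without that library. The same held in part for Il18rap (0.62 and 0.25 without it), for Il18bp, the secreted inhibitor of IL-18 (0.71 and 0.17), and for Il1f9, the gene of IL-36 gamma (0.52 and 0.12), which were singled out after their values were seen.

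GRdim/dim replicate 1 was the highest library for 11 of the 40 members (27.5%, against 18.8% of all genes), Il10rb, Il12rb1, Il13ra1, Il17ra, Il18bp, Il18r1, Il18rap, Il1f9, Il1rap, Il2ra and Il2rg. GR+/+ replicate 1 was likewise the highest library for more of the members, 8 (20%), than of all genes (13.5%). GRdim/dim replicate 1 had the highest neutrophil marker sum, 1157 CPM against 256 to 511 CPM in GR+/+ and 367 and 499 CPM in the other GRdim/dim lungs. All 8 tested neutrophil markers had a log2 fold change above 0, 3 of them with an unadjusted p under 0.05, and the part of neutrophils in these levels was not tested. Il21r, Il2rb, Il10ra, Il2rg and Il27ra, in contrast, kept an unadjusted edgeR p under 0.05 in each of the 6 fits without one library.

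Il3ra, the IL-3 receptor chain, was the tested gene of the common beta chain family. It had 29.6, 30.8 and 19.9 CPM in GR+/+ and 24.9, 26.3 and 47.9 CPM in GRdim/dim lungs, so that GRdim/dim replicate 3 stood apart and the groups overlapped (log2 fold change 0.30, SE 0.28). Il5, the eosinophil growth factor, had 4, 4 and 5 counts in GR+/+ and 4, 1 and 6 counts in GRdim/dim lungs and was not tested. Among the remaining genes, Il34, a ligand of the CSF-1 receptor, had 40.7, 29.7 and 34.1 CPM against 29.0, 23.6 and 42.4 CPM (log2 fold change -0.14, SE 0.24). Il11ra1, the IL-11 receptor of stromal cells, had 71.8, 75.5 and 72.6 CPM against 55.3, 73.9 and 80.2 CPM (log2 fold change -0.07, SE 0.18). Both overlapped, and the Il11ra1 count is uncertain because 57.7% of its 31-base windows recur in other genes, the Il11ra2 copies among them.

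Ordered by level per length over the 6 lungs, the members ran from Il4ra at 119 TPM through Il18r1 (72.0 TPM), Il33 (57.8 TPM), Il13ra1 (54.2 TPM), Il17rc (49.9 TPM), Il34 (48.6 TPM), Il10rb (46.5 TPM), Il11ra1 (45.8 TPM) and Il17d (40.8 TPM) to Il3ra (28.9 TPM). From Il33 to Il17d, neighbors in this order differed by less than their spread over the lungs. Chains with the largest fold changes were further down, Il2rg at 27.5 TPM, Il10ra at 23.9 TPM, Il2rb at 9.75 TPM, Il21r at 8.30 TPM, Il27ra at 6.48 TPM and Il2ra at 1.30 TPM. In all, 37 of the 40 tested genes were above 1 TPM and 18 above 10 TPM. The 34 untested members had at most 58 counts over all 6 libraries, and 10 of them had 0.

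**Figure D5:**
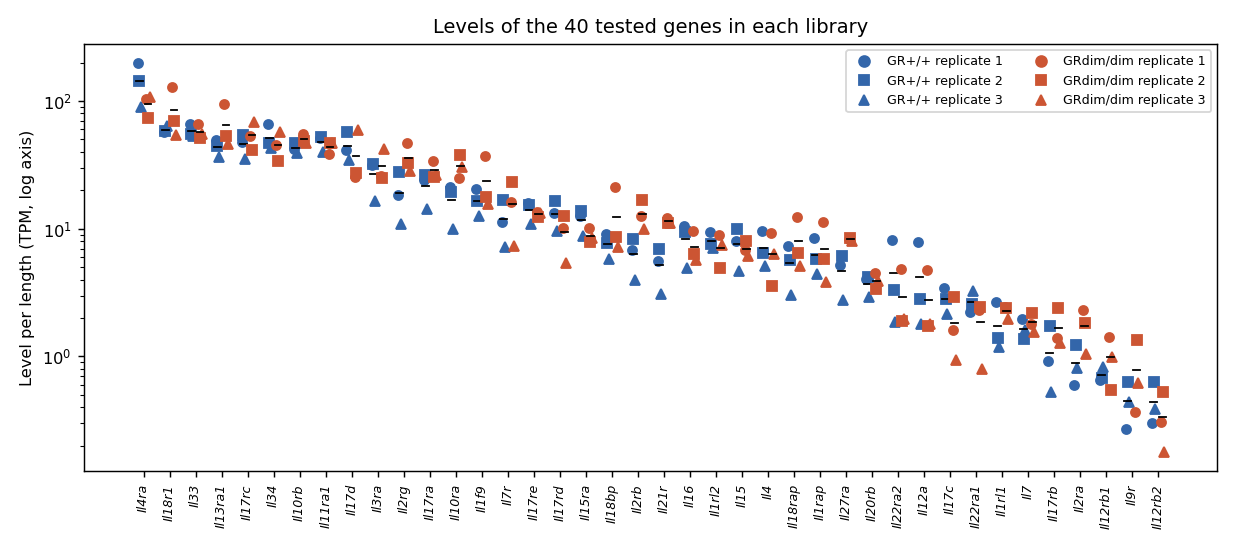
Level per length in TPM on a log axis of the 40 tested genes, in falling order of their mean, with one symbol per library and a bar at each group mean. The members span from Il4ra, at 119 TPM on average, to below 1 TPM, and the 8 receptor genes with an unadjusted p under 0.05 are spread over this range, from Il13ra1 at 54.2 TPM to Il2ra at 1.30 TPM.

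Downstream of these receptors, 0 genes of the 5 signalling and response lists were called by edgeR, while DESeq2 called 1 kinase or STAT gene, 1 feedback inhibitor and 1 response gene. Among 11 Janus kinases and STAT proteins, 10 had a log2 fold change above 0 (median 0.13). At an unadjusted p under 0.05, 2 of them were higher, against 4.91% of all genes. One was Stat4, which IL-12 receptors activate, at 1.79, 2.28 and 1.52 CPM in GR+/+ and 3.67, 3.32 and 3.04 CPM in GRdim/dim lungs, without overlap (log2 fold change 0.85, SE 0.34, edgeR adjusted p = 0.456). Among 14 feedback inhibitors and STAT targets (median 0.16), 1 was higher and 1 lower at that level, against 4.91% and 4.68% of all genes. Pim1, a kinase gene induced by STAT proteins, stood at 87.0, 90.8 and 74.1 CPM in GR+/+ and 118, 150 and 156 CPM in GRdim/dim lungs. These groups were well apart (log2 fold change 0.75, SE 0.17, edgeR adjusted p = 0.175), and Pim1 was the gene of this list that DESeq2 called. Socs7, of the suppressors of cytokine signalling, was lower without overlap, at 83.9, 68.2 and 88.0 CPM against 54.2, 60.6 and 65.7 CPM (log2 fold change -0.41, SE 0.17, edgeR adjusted p = 0.473).

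Of 14 adaptor genes of the IL-1 and IL-17 receptors (median 0.05), 1 had an unadjusted p under 0.05. That 1 gene was higher, where 4.91% of all genes were higher at that level. Myd88, the adaptor of IL-1 family and Toll-like receptors, had 67.4, 68.9 and 58.1 CPM in GR+/+ and 93.6, 75.8 and 89.2 CPM in GRdim/dim lungs, without overlap (log2 fold change 0.41, SE 0.16, edgeR adjusted p = 0.456). None of the 8 partner chains and cytokines without an interleukin symbol had an unadjusted p under 0.05 (median 0.39). Of the IL-4 and IL-13 response genes of lung, 9 of 12 were tested, 3 of these with a log2 fold change above 0 (median -0.03). Chil3, a chitinase-like protein of macrophages, was lower, at 244, 250 and 264 CPM in GR+/+ and 161, 156 and 95.6 CPM in GRdim/dim lungs (log2 fold change -0.88, SE 0.21, edgeR adjusted p = 0.202), and was the gene of this list that DESeq2 called. Markers of monocytes and macrophages summed to 530 to 615 CPM and 406 to 544 CPM, but Chil3 itself is part of that sum. Of these 11 markers, 7 had a log2 fold change above 0 (median 0.06), so the sum does not show them to be lower as a group. The part of these cells in the Chil3 level was not tested. The chemokine genes Ccl17 and Ccl11 were higher, with log2 fold changes of 0.95 (SE 0.35, edgeR adjusted p = 0.432) and 1.21 (SE 0.39, edgeR adjusted p = 0.36). In all 3 response genes the genotypes did not overlap.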

How the data were processed

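Lung poly(A) RNA of 6 mice, one library per mouse, was sequenced by the authors, who deposited raw read counts per gene without normalization. The processing notes name mm10 and DESeq2, while the aligner, the counter and the use of strand are not given in the sources used here. Members had the same coordinates in GENCODE M21 of GRCm38 for 71 of 74 genes. Genotypes come from the sample titles. The main test was edgeR 4.0.16 (quasi-likelihood, TMM scaling, default expression filter) in R 4.3.3 over 16568 genes with Benjamini-Hochberg adjustment. A call needed an adjusted p under 0.05 and a log2 fold change beyond 0.5. The code was tested on simulated data. DESeq2 1.42.0, other scaling and filters, a sex covariate, a replicate block and leaving out each library were alternatives. Named members were those with a call, an unadjusted p under 0.05 or no overlap, the 10 highest in TPM, shared chains and main ligands. Members and lists were chosen with earlier results of these data known. TPM used the deposited gene lengths. Sequences are from RefSeq (GRCm38.p6), with 250 bases before each start site searched on both strands. A gene of the kinase and STAT list is not reported here.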

Additional observations from a re-analysis of the deposited data

How the results depend on the processing

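Depth left 34 of the 74 members untested, with at most 58 counts each over the 6 libraries. The number of members called (0) was 3 with DESeq2 and 4 without a filter on low counts (Il10ra, Il21r, Il2rb and Il2rg). Over all genes, 274 of 16150 were called with DESeq2 and 522 of 31368 without a filter, against 28 of 16568. The number of members called remained 0 without a fold threshold and under each other alternative, whereas all genes called numbered 4 to 22 without one library. Members lower at an unadjusted p under 0.05 (0) numbered 1 with the sex covariate and with DESeq2 (Il4ra in both) and 1 with the replicate block (Il17rd). They numbered 3 without a filter (Il17rd, Il23a and Il4ra) and 0 to 2 without one library. Il4ra was among them without GR+/+ replicate 3 and without GRdim/dim replicate 3. Those higher (8) numbered 5 (without GRdim/dim replicate 1) to 12 (without GRdim/dim replicate 3). Those without overlap (9) numbered 11 to 15 without one library, since fewer samples overlap less often by construction. The shares of all genes in these fits are not at hand, so these numbers cannot be set beside a background. The median log2 fold change (0.21) was 0.27 with DESeq2 and without a filter, both over 64 members, and 0.12 to 0.25 without one library.

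Of 288 comparisons of the 24 named and tested members with an alternative, 267 stayed in direction and side of the threshold, 7 became called and 14 reversed. The reversed log2 fold changes were those of Il33, at -0.056 with the sex covariate and -0.066 to 0.081 without one library, and, without one library each, of Il11ra1 (-0.18 to 0.079), Il15 (-0.24 to 0.15), Il17d (-0.77 to 0.079), Il1rap (-0.27 to 0.43), Il34 (-0.41 to 0.036), Il3ra (-0.062 to 0.48) and Il4 (-0.39 to 0.18). The causes were not tested. The sample titles number the replicates but give no pairing of the mice. Deviations of same-numbered libraries correlated at 0.352, 0.0777 and -0.258, and 3 of 6 libraries correlated best with their own number. So few libraries cannot decide on a pairing. With the replicate block, 34 genes and 0 members were called. Groups of 3 were too small for a search for outlying libraries.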

Other observations

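Several members too rare to be tested had uneven counts. Il24, a cytokine of the IL-10 family, had 0 counts in every GR+/+ lung and 2, 4 and 1 counts in the GRdim/dim lungs. Il20ra, a receptor chain for IL-20 family cytokines, had 3, 4 and 5 counts in GR+/+ and 19, 5 and 4 counts in GRdim/dim lungs. Il23r, the IL-23 receptor of Th17 and innate lymphoid cells, had 1, 4 and 5 counts against 5, 20 and 4 counts. Il4i1, an amino acid oxidase of myeloid and B cells, had 0, 7 and 12 counts against 2, 1 and 2 counts. These few counts are uncertain because 80.5% of its 31-base windows recur in other genes, Tbc1d17, Nup62 and Atf5 among them. Il24, Il20ra, Il23r and Il4i1 were singled out after their counts were seen.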
